A study of Homo sapiens with 6 samples.

Results

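The APOBEC genes encode cytidine deaminases, enzymes that turn cytosine into uracil in single-stranded DNA or RNA. Expression of 8 of them, APOBEC1 and the 7 genes of the APOBEC3 cluster (APOBEC3A, APOBEC3B, APOBEC3C, APOBEC3D, APOBEC3F, APOBEC3G and APOBEC3H), was read in human embryonic stem cells in the naive and the primed state of pluripotency. They were taken by gene symbol from a table of 63677 genes, in which the 8 symbols held 9 entries because APOBEC3A was listed under 2 gene identifiers. RNA came from 2 embryonic lines, Royan H6, written RH6 here, and Royan H5, written RH5. Naive cells, induced with a condition named 2a2iL and kept in 2iL medium, gave 2 libraries of RH6 at passage 10 and 2 libraries of RH5 at passage 17. Primed cells, kept in medium with bFGF, gave 1 library of RH6 at passage 20 and 1 library of RH5 at passage 16. All cells grew on inactivated mouse embryonic fibroblasts. Medium changed with state, so these cannot be told apart, and within each line the states differ in passage as well. Between the naive groups, line and passage cannot be told apart either. No label says that the duplicate naive libraries were separate cultures, so the spread between them may be only technical. The p-values within and between the lines rest on that spread. Those over both lines rest on it and on how far the state effect differed between the lines.

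APOBEC1 is the catalytic subunit of the complex that edits apolipoprotein B mRNA in the intestine. The APOBEC3 proteins are best known for restricting retroviruses and retrotransposons, whose single-stranded DNA intermediates they deaminate, and many of their genes respond to interferon in blood cells. Human pluripotent cells transcribe endogenous retroviral and LINE elements, which is why this family is followed in them. Each enzyme carries 1 or 2 zinc-binding deaminase domains, in which a histidine and a pair of cysteines hold the zinc ion and a glutamate moves the proton.

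The deaminase motif shows how closely the members resemble each other, and hence how far short reads can separate them. It was sought in each gene's longest coding sequence (GENCODE annotation of GRCh38), and 25 of 19530 coding genes (0.128%) held it. APOBEC1, APOBEC3A, APOBEC3C and APOBEC3H had 1 copy each, and APOBEC3B, APOBEC3D, APOBEC3F and APOBEC3G had 2. Windows are printed 5′ to 3′ in the coding sense, with the codons of the histidine, the glutamate and both cysteines in capitals. The first lines hold the second copy of APOBEC3G, APOBEC3F and APOBEC3D and the single copy of APOBEC3C, at chr22:39086312-39086416, chr22:39052095-39052199, chr22:39031715-39031819 and chr22:39017787-39017891. The last lines hold the second copy of APOBEC3B, at chr22:38991365-38991475, and the single copy of APOBEC3A, at chr22:38961420-38961530. All lie on the plus strand and each within 1 exon.
APOBEC3G copy 2: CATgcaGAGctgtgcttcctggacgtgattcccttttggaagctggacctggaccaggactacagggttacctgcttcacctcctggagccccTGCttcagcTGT
APOBEC3F copy 2: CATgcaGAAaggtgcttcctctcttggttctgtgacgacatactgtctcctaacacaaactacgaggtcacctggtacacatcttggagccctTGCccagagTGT
APOBEC3D copy 2: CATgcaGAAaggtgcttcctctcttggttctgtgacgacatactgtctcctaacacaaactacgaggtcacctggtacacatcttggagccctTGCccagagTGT
APOBEC3C copy 1: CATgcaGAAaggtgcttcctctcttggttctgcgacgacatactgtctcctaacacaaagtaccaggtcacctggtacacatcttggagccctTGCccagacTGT
APOBEC3B copy 2: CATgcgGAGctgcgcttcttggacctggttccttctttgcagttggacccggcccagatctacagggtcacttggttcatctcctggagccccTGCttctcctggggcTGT
APOBEC3A copy 1: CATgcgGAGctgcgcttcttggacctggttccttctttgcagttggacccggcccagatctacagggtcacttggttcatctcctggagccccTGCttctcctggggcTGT

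The windows of APOBEC3D copy 2 and APOBEC3F copy 2 were identical over all 105 bases, and those of APOBEC3A and APOBEC3B copy 2 over all 111 bases. APOBEC3C matched APOBEC3D copy 2 at 101 of 105 bases (96.2%). APOBEC3G copy 2 matched APOBEC3C at 60 of 105 bases (57.1%). Over whole transcripts, the share of 75-base stretches, the read length per the labels, that also occur in another gene of the count table was 33.3% for APOBEC3B, most of it shared with APOBEC3A. It was 29.5% for APOBEC3A, 15.8% for APOBEC3F, 14.7% for APOBEC3G and 11.6% for APOBEC3D. It was 0.255% for APOBEC3C, and no such stretch was found for APOBEC3H or APOBEC1. Matches on either strand were counted. A single read from such a stretch cannot be given to 1 gene by its sequence alone, though its strand or its mate may place it. These shares are therefore not a measure of how many reads were misplaced. APOBEC3A, APOBEC3B, APOBEC3D, APOBEC3F and APOBEC3G counts are uncertain for this reason, and the handling of such reads is not given in the sources used here. The exons of APOBEC3B overlap those of APOBEC3A and of the antisense RNA APOBEC3B-AS1 over 23.3% of their length. Part of the stretches shared among these genes may therefore be the same bases of the genome. The 7 APOBEC3 genes lie in a row on chromosome 22, from 38952741 for the start of APOBEC3A to 39104067 for the end of APOBEC3H, all on the plus strand. APOBEC1 lies on the minus strand of chromosome 12, at chr12:7649400-7665903.

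The 6 libraries held between 13457979 and 14663982 counted reads, and 19434 genes had enough reads to be tested. Of 10 markers of the naive state, 8 were tested and 6 were higher in naive cells, while KLF17 had 0, 2, 13 and 18 counts in naive libraries against 0 and 0 in primed libraries, and DPPA5 had 0 counts in every naive library. Of 10 markers of the primed state, 8 were tested and 7 were lower in naive cells. The pluripotency factor POU5F1 had 343 to 504 CPM (counts scaled to a common library size with TMM factors) in naive libraries and 310 and 388 CPM in primed libraries. It was 1 of 10 tested markers of pluripotent stem cells, of which 5 were lower and 0 higher in naive cells. Those 10 markers summed to 8454, 8683, 6416 and 6755 CPM in naive libraries and 10751 and 11544 CPM in primed libraries. Values of single libraries run in the order naive RH6 (2 libraries), naive RH5 (2 libraries), primed RH6, primed RH5.

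Among the single-domain enzymes, APOBEC1 (ENSG00000111701), the mRNA editor, had 0 counts in all 6 libraries, which allows a level of up to 0.0357 CPM over them. APOBEC3A (ENSG00000128383), a DNA deaminase of myeloid cells, had 0, 1, 0 and 0 counts in naive libraries and 0 and 0 in primed libraries, and its other entry was listed at 0 throughout. APOBEC3H (ENSG00000100298), a restriction factor of retroviruses, had 4, 6, 4 and 1 counts in naive libraries and 6 and 2 counts in primed libraries. None of these genes had enough reads for the test. For APOBEC3H the naive to primed ratio of summed counts, scaled to library size, was 0.972 (exact 95% interval 0.387 to 2.65, counting error only), from 15 naive and 8 primed counts. An APOBEC3H difference inside that interval was not detectable at this depth. APOBEC3C (ENSG00000244509), a single-domain enzyme reported to act on LINE elements, was the most abundant member, with 213, 184, 218 and 201 counts in naive libraries and 216 and 256 counts in primed libraries. The state groups overlapped for it.

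Among the double-domain enzymes, APOBEC3D (ENSG00000243811), which restricts retroviruses from within the virion, had 89, 95, 102 and 119 counts in naive libraries and 94 and 112 counts in primed libraries. APOBEC3F (ENSG00000128394), which acts likewise, had 71, 77, 79 and 88 counts in naive libraries and 64 and 71 counts in primed libraries. APOBEC3B (ENSG00000179750), a nuclear enzyme known as a source of mutations in tumours, had 21, 30, 25 and 26 counts in naive libraries and 25 and 34 counts in primed libraries. For all 3 the naive and primed libraries overlapped. APOBEC3G (ENSG00000239713), the restriction factor that the HIV protein Vif removes, had 31, 39, 61 and 48 counts in naive libraries and 13 and 22 counts in primed libraries. It was the tested member whose naive libraries all lay above both primed libraries, a separation in the same direction found for 21.5% of all genes tested.

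**Figure D1:**
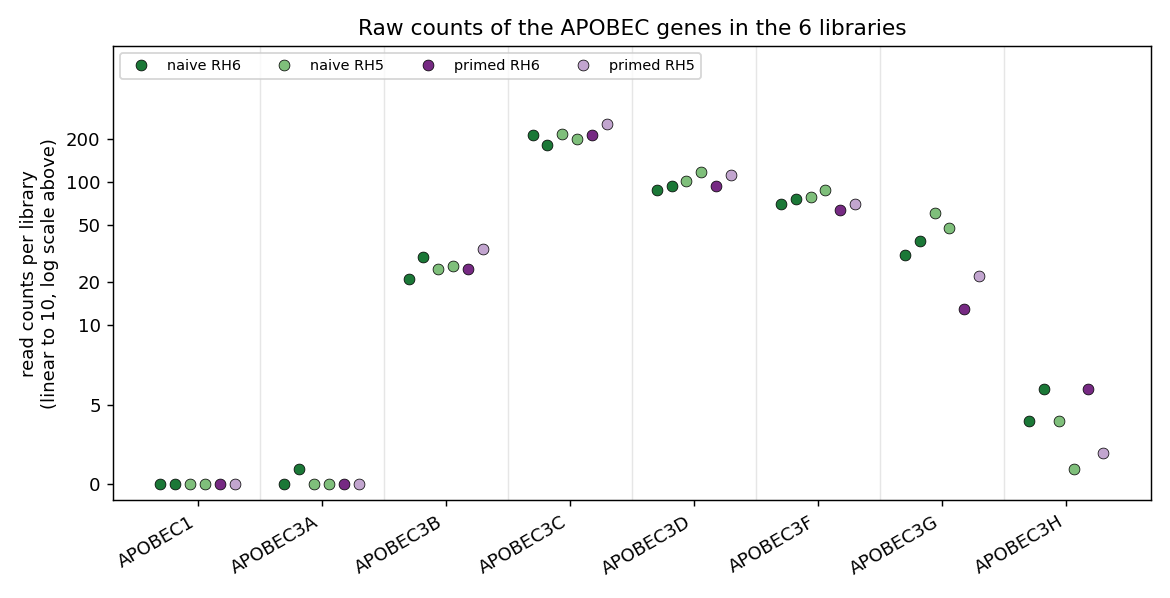
Raw read counts (vertical axis, linear to 10 and on a log scale above) of the 8 APOBEC genes in each of the 6 libraries, naive RH6 and naive RH5 on the left of each gene and primed RH6 and primed RH5 on the right. APOBEC3C lies highest with 184 to 256 counts, APOBEC1 has 0 in every library, and APOBEC3G shows naive points at 31 to 61 above primed points at 13 and 22.

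To compare levels between genes, CPM were divided by the length of all exons of each gene. On this scale APOBEC3C stood at 5.23 ± 0.291 CPM per kb in naive cells (SD, n = 4) and 5.86 in primed cells (mean of 2). APOBEC3D followed with 2.90 ± 0.442 CPM per kb in naive cells and 2.85 in primed cells. APOBEC3F had 1.76 ± 0.203 in naive cells and 1.46 in primed cells, and APOBEC3B had 0.974 ± 0.163 in naive cells and 1.09 in primed cells. These neighbours were separated in every library. APOBEC3G, with 0.595 ± 0.170 CPM per kb in naive cells and 0.227 in primed cells, overlapped APOBEC3B in the naive libraries, where APOBEC3G reached 0.794 and APOBEC3B went down to 0.776. In primed libraries APOBEC3G, at 0.160 and 0.293, overlapped APOBEC3H, at 0.322 and 0.116. The place of APOBEC3G depends on the length: with the 1834 bases of the transcript with its longest coding sequence in place of 5437 bases of exons, its level was 1.76 ± 0.503 CPM per kb in naive cells and 0.672 in primed cells. On that length it exceeded APOBEC3B in naive cells (1.00 CPM per kb) but not in primed cells (1.12 CPM per kb).

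**Figure D2:**
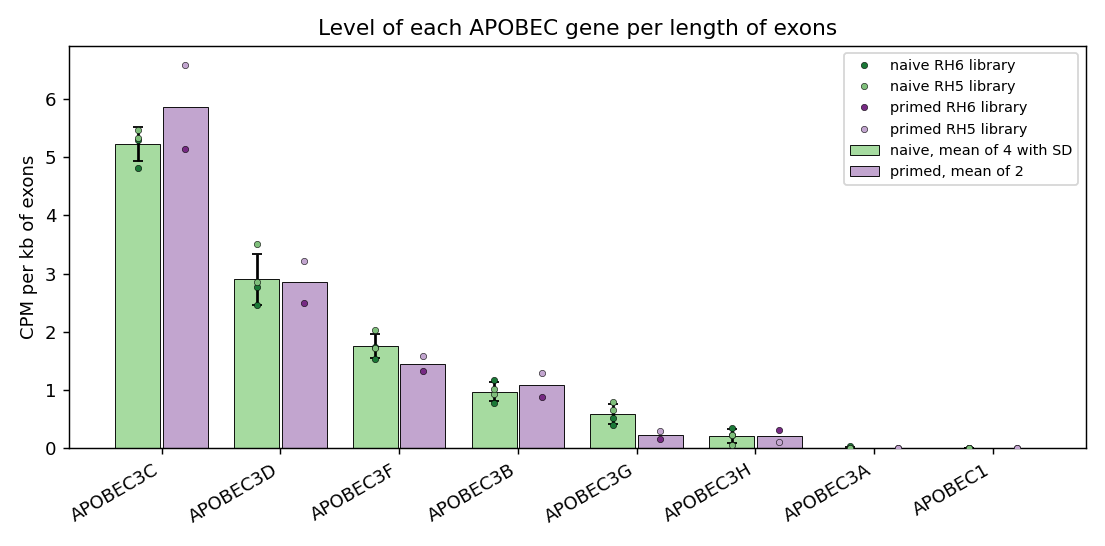
CPM per kb of exons for each APOBEC gene, with bars for the mean of 4 naive libraries (SD as error bar) and of 2 primed libraries and a point for each library, coloured by group as in the key. The order is APOBEC3C, APOBEC3D, APOBEC3F, APOBEC3B, APOBEC3G, APOBEC3H, with APOBEC3A and APOBEC1 at or near 0.

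Naive cells were set against primed cells over both lines with edgeR's quasi-likelihood test and a term for the line, and p-values were adjusted over all genes tested by the Benjamini-Hochberg method. Of the 5 members tested, 1 passed an adjusted p of 0.05, against 25.7% of all genes. That member was APOBEC3G, which rose in naive cells. Its level was 2.17, 2.87, 4.31 and 3.59 CPM in naive libraries and 0.872 and 1.59 CPM in primed libraries. The log2 fold change was 1.403 ± 0.30 (SE, 95% interval 0.70 to 2.11, edgeR adjusted p = 0.0150). The median over all genes was -0.0065 on the log2 scale. Over 13 alternative settings the APOBEC3G change kept its direction, at 1.31 to 1.55 on the log2 scale with adjusted p from 0.00536 to 0.130. The call was lost without naive RH5 replicate 1 (log2 1.35, edgeR adjusted p = 0.0593), without the line term (log2 1.39, edgeR adjusted p = 0.0585) and after the naive duplicates were summed (log2 1.43, edgeR adjusted p = 0.130).

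The other tested members did not pass. APOBEC3F had 4.98, 5.67, 5.59 and 6.57 CPM in naive libraries and 4.29 and 5.14 CPM in primed libraries, a log2 difference of 0.27 ± 0.20 (95% interval -0.21 to 0.76, edgeR adjusted p = 0.369). APOBEC3D had 6.24, 6.99, 7.21 and 8.89 CPM in naive libraries and 6.31 and 8.11 CPM in primed libraries, a log2 difference of 0.03 ± 0.19 (95% interval -0.41 to 0.47). Both genes overlapped between the states, and primed RH5 lay above primed RH6 in each. APOBEC3C had 14.9, 13.5, 15.4 and 15.01 CPM in naive libraries and 14.5 and 18.5 CPM in primed libraries, a log2 difference of -0.16 ± 0.14 (95% interval -0.50 to 0.18). APOBEC3B had 1.47, 2.21, 1.77 and 1.94 CPM in naive libraries and 1.68 and 2.46 CPM in primed libraries, a log2 difference of -0.15 ± 0.31 (95% interval -0.89 to 0.59). For APOBEC3C the highest library was primed RH5 and the other primed library lay inside the naive range. The interval of APOBEC3B reaches to almost a log2 unit below 0, so at 21 to 34 counts per library a change of that size in APOBEC3B could not be told from none.

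**Figure D3:**
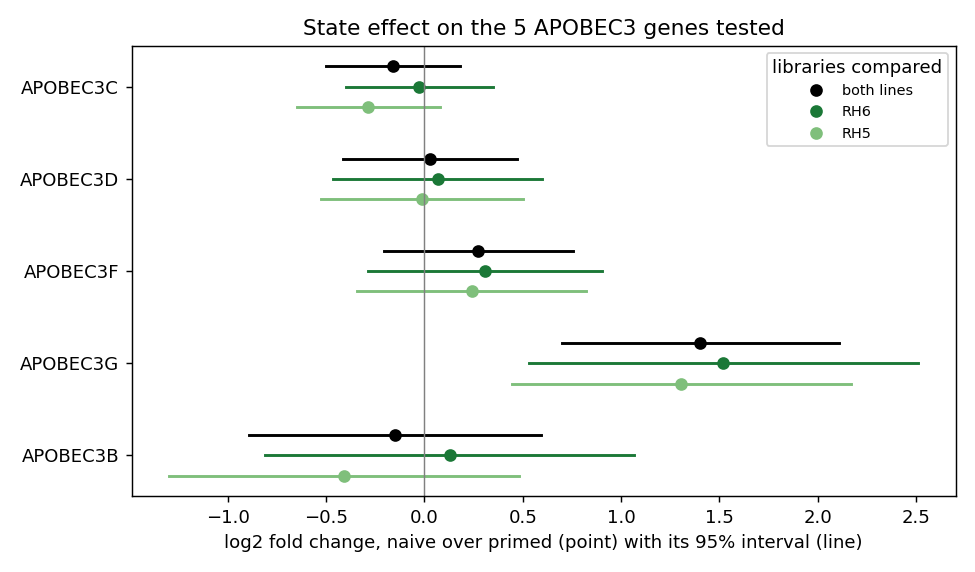
Log2 fold change of naive over primed cells (points) with its 95% interval (lines) for the 5 APOBEC3 genes tested, over both lines and within RH6 and RH5. The 3 intervals of APOBEC3G lie above 0, with points at 1.403, 1.52 and 1.31, and the intervals of APOBEC3C, APOBEC3D, APOBEC3F and APOBEC3B cross 0.

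Within each line the spread came from the naive duplicates, on the assumption that a single primed library varies as much. In RH6, 1 of the 5 members passed, against 33.6% of all genes. This was APOBEC3G, with 2.17 and 2.87 CPM in naive RH6 and 0.872 CPM in primed RH6 (log2 fold change 1.52 ± 0.44, edgeR adjusted p = 0.0241). In RH5, 1 of 5 passed, against 33.5% of all genes. It was again APOBEC3G, with 4.31 and 3.59 CPM in naive RH5 and 1.59 CPM in primed RH5 (log2 fold change 1.31 ± 0.39, edgeR adjusted p = 0.0257). Neither call held with DESeq2, which gave an adjusted p of 0.146 in RH6 and 0.200 in RH5. The RH6 call was also lost without naive RH6 replicate 2 (log2 1.31, edgeR adjusted p = 0.0658), and the RH5 call without naive RH5 replicate 1 (log2 1.17, edgeR adjusted p = 0.0700). The effects within the lines share no library, and their difference, RH6 minus RH5, was 0.21 ± 0.60 on the log2 scale for APOBEC3G (95% interval -1.12 to 1.55, edgeR adjusted p = 0.864). That interval holds differences as large as the effect itself. For this difference edgeR called none of the 5 members, and none had an unadjusted p under 0.05, while it called 12% of all genes (5.86% upward and 6.16% downward in RH6 relative to RH5).

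Between the lines in the naive state, APOBEC3G was 2.17 and 2.87 CPM in naive RH6 and 4.31 and 3.59 CPM in naive RH5. The groups did not overlap, but the log2 difference of -0.65 ± 0.29 did not pass (edgeR adjusted p = 0.127). It was the member with an unadjusted p under 0.05, and edgeR called 0 of 5 members against 25.5% of all genes. APOBEC3D, APOBEC3F, APOBEC3C and APOBEC3B had log2 differences of -0.28, -0.19, -0.10 and -0.01 in naive RH6 over naive RH5. The primed libraries, 1 for each line, allow no test. APOBEC3C was lower in primed RH6 than in primed RH5 beyond counting error, at a ratio of 0.781 (exact 95% interval 0.649 to 0.940). For APOBEC3G that ratio was 0.547 (0.253 to 1.14), for APOBEC3D 0.777 (0.585 to 1.03), for APOBEC3F 0.835 (0.586 to 1.19) and for APOBEC3B 0.681 (0.390 to 1.18). These intervals cover counting error only.

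Summed over the cluster, the 7 APOBEC3 genes had 429, 432, 489 and 483 counts in naive libraries and 418 and 497 counts in primed libraries. That is 30.1, 31.8, 34.6 and 36.1 CPM in naive libraries and 28.04 and 36.0 CPM in primed libraries, so the states overlapped in the total. APOBEC3G made up 7.23%, 9.03%, 12.5% and 9.94% of the cluster's counts in naive libraries and 3.11% and 4.43% in primed libraries. APOBEC3C made up 49.7%, 42.6%, 44.6% and 41.6% in naive libraries and 51.7% and 51.5% in primed libraries. The shares did not overlap between the states for either gene, higher in naive cells for APOBEC3G and lower for APOBEC3C. Shares of the other members are not given here, so these values do not set APOBEC3G and APOBEC3C apart from them. These shares are not independent: a larger share of APOBEC3G lowers those of the other genes. The level of APOBEC3C itself overlapped between the states, so its share is not a separate difference.

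Genes whose log2 CPM followed a member most closely over the 6 libraries were ranked among 16841 genes. Closest to APOBEC3G were NR0B1, an orphan nuclear receptor, with a Pearson r of 0.996, and SFT2D1 and SPACA6P, both with 0.994. Closest to APOBEC3F was an RNA named RP5-837I24.1, with 0.988, followed by BDNF-AS with 0.986 and the guanylate kinase GUK1 with 0.983. Closest to APOBEC3C were CPSF1, a subunit of the mRNA cleavage and polyadenylation complex, with 0.989, SBF2 with 0.986 and MARCH1 with 0.981. Closest to APOBEC3D were C22orf46 with 0.971, and ERICH1 and RP11-229C3.2 with 0.969. Closest to APOBEC3B were RP11-395B7.7 with 0.990, and RP11-561N12.7 and CTB-119C2.1 with 0.988. No APOBEC3 gene was eligible for these ranks. All values share the same 6 libraries, so with so many genes to choose from high values of r are a description only.

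The family also includes APOBEC2 and APOBEC4, whose functions are less known. APOBEC2 had 4, 1, 1 and 2 counts in naive libraries and 2 and 9 counts in primed libraries. APOBEC4 had 13 and 4 counts in naive RH6 and 10 in primed RH6, and 32 and 38 counts in naive RH5 and 7 in primed RH5. Its log2 fold change was 1.13 ± 0.68 over both lines (edgeR adjusted p = 0.273), -0.14 ± 0.70 in RH6 and 2.31 ± 0.64 in RH5 (edgeR adjusted p = 0.0188), and the difference between the lines did not pass (edgeR adjusted p = 0.144). APOBEC4 was lower in naive RH6 than in naive RH5 (log2 -2.05 ± 0.48, edgeR adjusted p = 0.0107). APOBEC3B-AS1, the antisense RNA, had 14, 12, 3 and 7 counts in naive libraries and 12 and 3 counts in primed libraries, high in RH6 and low in RH5 in both states.

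Genes that work with the family were read from lists, each described by its counts beside the 12.1% of all genes called higher and the 13.6% called lower in naive cells. Of 8 tested cofactors of APOBEC1, 1 rose and 1 fell. DNAJB11, a chaperone that binds APOBEC1, rose in naive cells (log2 fold change 0.89 ± 0.13, edgeR adjusted p = 0.00319). CELF2, an RNA-binding protein that modulates editing, was lower in them (-1.11 ± 0.12, edgeR adjusted p = 0.00124). The RNA-binding partner RBM47 had 117, 117, 77.9 and 88.8 CPM in naive libraries and 84.7 and 146 CPM in primed libraries. It did not pass over both lines, but rose in RH6 (log2 0.47, edgeR adjusted p = 0.0156) and fell in RH5 (log2 -0.81, edgeR adjusted p = 5.52e-04). Of 6 tested adenosine deaminases of RNA, 1 fell and none rose. That was ADAT2, a tRNA deaminase (log2 -0.57 ± 0.16, edgeR adjusted p = 0.0393), whose call was lost under 7 of 13 alternatives, 5 of them the removal of a single library other than primed RH6, with adjusted p up to 0.278.

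Of 15 genes listed with uracil excision and abasic site repair, which process the product of DNA deamination, 2 fell and none rose. These were UNG and SAMHD1, of which SAMHD1 is listed for its action on dNTPs and is counted again among the genes that restrict retroelements. UNG, the main uracil glycosylase, had 92.1, 83.01, 77.9 and 80.6 CPM in naive libraries and 129 and 127 CPM in primed libraries (log2 fold change -0.62 ± 0.10, edgeR adjusted p = 0.00486). SAMHD1, which hydrolyses dNTPs and restricts retroviruses, had 18.9, 16.7, 21.0 and 20.2 CPM in naive libraries and 163 and 131 CPM in primed libraries (log2 -2.94 ± 0.14, edgeR adjusted p = 6.74e-05). For both genes every naive library lay below both primed libraries. The UNG call was lost after the naive duplicates were summed (edgeR adjusted p = 0.114). The list's median log2 fold change was 0.05, close to that of all genes.

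Of 24 tested genes that restrict retroelements, 6 rose and 5 fell, with a median log2 fold change of 0.30. Among those that rose were PIWIL4 and the membrane protein IFITM1, which had 35.2, 64.6, 40.0 and 60.1 CPM in naive libraries and 16.4 and 11.3 CPM in primed libraries (log2 1.86 ± 0.31, edgeR adjusted p = 0.00642). PIWIL4, a Piwi protein, had a log2 fold change of 1.64 ± 0.38 (edgeR adjusted p = 0.0205), a call lost under 5 of 13 alternatives, 4 of them without a library (each but naive RH5 replicate 2 and primed RH6), with adjusted p up to 0.139. The largest decreases besides SAMHD1 were those of BST2 and TRIM22. BST2, the tetherin that holds virions at the cell surface, had 19.5, 25.6, 52.0 and 53.0 CPM in naive libraries and 322 and 173 CPM in primed libraries (log2 -2.89 ± 0.42, edgeR adjusted p = 0.00360). TRIM22, an antiviral ubiquitin ligase, had a log2 fold change of -1.29 ± 0.21 (edgeR adjusted p = 0.00543), which did not pass after that summing (edgeR adjusted p = 0.0690).

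Of 38 genes of the interferon response, 26 were tested, of which 3 rose and 8 fell, with a median log2 fold change of -0.28. Their summed level was 425, 470, 485 and 519 CPM in naive libraries and 759 and 619 CPM in primed libraries. That separation rested on BST2: without it, in a sum chosen after seeing the data, the other 37 genes gave 405, 445, 433 and 466 CPM in naive libraries and 438 and 446 CPM in primed libraries, and the states overlapped. The largest decreases were those of IFIH1, a sensor of double-stranded RNA (log2 -3.91 ± 0.46, edgeR adjusted p = 0.00155), MX2, an antiviral GTPase (-3.22 ± 0.36, edgeR adjusted p = 0.00132), and BST2. IFIH1 had 1, 1, 2 and 3 counts in naive libraries and 28 and 29 counts in primed libraries. The genes that rose were IFITM1, IFITM3 (1.38 ± 0.15, edgeR adjusted p = 0.00108) and USP18 (1.18 ± 0.35, edgeR adjusted p = 0.0487), the call of USP18 being lost under 10 of 13 alternatives, 5 of them without a library (each but primed RH6), with adjusted p up to 0.214. Of 23 regulators described for APOBEC3 genes, 4 rose and 2 fell, with a median of 0.16. NFKB1, an NF-kB subunit, had 10.3, 9.64, 16.4 and 15.2 CPM in naive libraries and 3.02 and 4.71 CPM in primed libraries (log2 1.73 ± 0.17, edgeR adjusted p = 8.68e-04). NFKB2, its paralog, had a log2 fold change of 1.42 ± 0.19 (edgeR adjusted p = 0.00242), and the transcription factor TFAP2C, itself a marker of the naive state, 1.38 ± 0.14 (edgeR adjusted p = 8.47e-04). The regulators that fell were PRKCA, a protein kinase C (-0.67 ± 0.14, edgeR adjusted p = 0.0129), and IRF3, an interferon regulatory factor (-0.53 ± 0.12, edgeR adjusted p = 0.0174). The PRKCA call was lost under 3 of 13 alternatives, among them without naive RH6 replicate 2 (edgeR adjusted p = 0.0542), with adjusted p up to 0.178. The IRF3 call was lost under 5 of 13, among them without any 1 of the 4 naive libraries, with adjusted p up to 0.239.

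**Figure D4:**
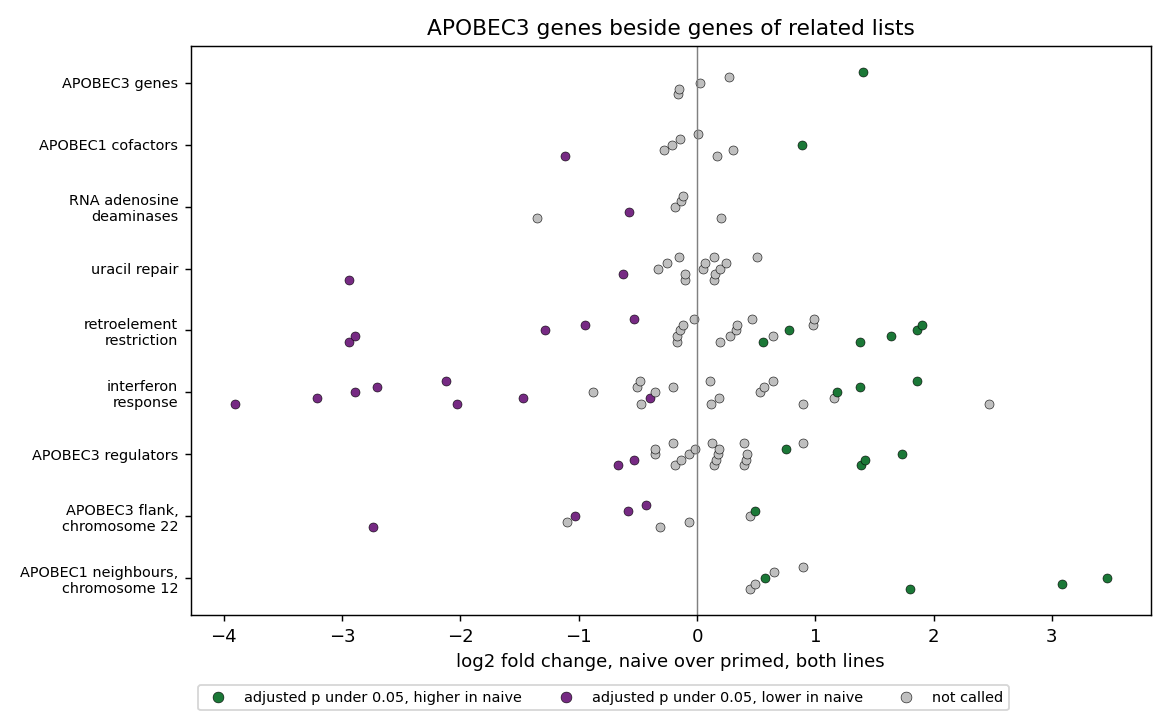
Log2 fold change of naive over primed cells over both lines (horizontal axis) for each tested gene (point) of the APOBEC3 genes and of lists of related genes (rows, with a small vertical offset so that points do not overlap). Green points are genes called higher in naive cells, purple points genes called lower and grey points genes not called. Among the APOBEC3 genes only APOBEC3G, at 1.403, is called, while the interferon response spans IFIH1 at -3.91 and IFITM1 at 1.86.

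Of 9 genes that flank the APOBEC3 cluster on chromosome 22, all tested, 1 rose and 4 fell, with a median log2 fold change of -0.43. NPTXR, a neuronal pentraxin receptor, had 2.03, 1.32, 2.90 and 2.91 CPM in naive libraries and 15.1 and 14.6 CPM in primed libraries (log2 -2.74 ± 0.26, edgeR adjusted p = 6.74e-04). CBX6, the Polycomb gene before APOBEC3A, had a log2 fold change of -0.43 ± 0.12 (edgeR adjusted p = 0.0359), lost under 8 of 13 alternatives, 5 of them without a library (each but primed RH6), with adjusted p up to 0.338. CBX7, the Polycomb gene after APOBEC3H, had -1.10 ± 0.34 and did not pass (edgeR adjusted p = 0.0524). Of 12 neighbours of APOBEC1 on chromosome 12, 8 were tested, of which 4 rose and none fell, with a median of 0.78. GDF3, a ligand of the TGF-beta family and next to APOBEC1, had 86.3, 77.5, 43.3 and 38.2 CPM in naive libraries and 2.68 and 7.61 CPM in primed libraries (log2 3.46 ± 0.54, edgeR adjusted p = 0.00468). DPPA3, a maternal factor and naive marker, had 1.80 ± 0.39 (edgeR adjusted p = 0.0160, but 0.0887 with summed naive duplicates), and MFAP5, a microfibril protein, 3.09 ± 0.40 (edgeR adjusted p = 0.00237). APOBEC1 itself, in the same stretch of chromosome 12, had 0 counts in these libraries.

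Cells of other types can carry APOBEC3 transcripts, so their markers were read in the same libraries. In bulk RNA, fewer cells of a type and less RNA per cell cannot be told apart. The 16 blood and lymphoid markers summed to 14.9, 13.5, 42.0 and 47.1 CPM in naive libraries and 12.7 and 13.8 CPM in primed libraries, and naive RH5 was the group that stood high. APOBEC3G was also highest in naive RH5, and its difference from naive RH6 had an edgeR adjusted p of 0.127. In RH6 the sum, which adds markers that rose and markers that fell, was 14.9 and 13.5 CPM in naive and 12.7 CPM in primed libraries. There APOBEC3G had 2.17 and 2.87 CPM in naive and 0.872 CPM in primed libraries. Of these markers 5 were tested and 2 rose, LCP1 and CSF1R. LCP1, an actin-bundling protein, supplied most of the sum, with 154, 123, 495 and 557 counts in naive libraries and 82 and 98 counts in primed libraries (log2 1.63, edgeR adjusted p = 0.0177). The LCP1 call was lost without naive RH5 replicate 1 (edgeR adjusted p = 0.0539), without the line term (0.0971) and with summed naive duplicates (0.0941). CSF1R, a macrophage receptor, had 20, 14, 10 and 15 counts in naive libraries and 3 and 4 counts in primed libraries (log2 2.08, edgeR adjusted p = 0.0275), lost under 5 of 13 alternatives, 4 of them without a library (each but naive RH5 replicate 1 and primed RH5), with adjusted p up to 0.133. Within the lines the log2 fold change of LCP1 was 0.85 in RH6 and 2.43 in RH5. That of CSF1R was 2.55 in RH6 and 1.62 in RH5. Of the other tested blood markers, CD53 was higher and CD4 and CORO1A were lower in naive cells, without passing over both lines. CD53 had 8, 5, 23 and 11 counts in naive libraries and 3 and 7 counts in primed libraries (log2 1.23, edgeR adjusted p = 0.139). Its log2 fold change was 1.18 in RH6 and 1.26 in RH5. CD4 had 9, 13, 39 and 14 counts in naive libraries and 50 and 33 counts in primed libraries (log2 -1.20, edgeR adjusted p = 0.145). For CD4 the log2 fold change was -2.07 in RH6 and -0.32 in RH5. CORO1A had 10, 18, 7 and 7 counts in naive libraries and 24 and 22 counts in primed libraries (log2 -1.12, edgeR adjusted p = 0.0934). For CORO1A the log2 fold change was -0.67 in RH6 and -1.63 in RH5. The defining lymphoid genes CD3E, CD3D and MS4A1 were at 0 in all libraries, and the pan-leukocyte gene PTPRC had 0 counts in every naive library and 1 and 3 counts in primed libraries. Of 8 tested fibroblast markers 5 rose and 1 fell, and the 10 markers of that list summed to 819, 638, 353 and 411 CPM in naive libraries and 267 and 261 CPM in primed libraries. Of 8 tested trophectoderm markers 4 rose and 1 fell, and the 12 markers of that list summed to 498, 502, 564 and 594 CPM in naive libraries and 141 and 191 CPM in primed libraries. The part of these cell types in the APOBEC3G difference was not tested.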

How the data were processed

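RNA depleted of small RNAs was sequenced as paired reads of 75 bases after a stranded total RNA library kit, per the labels' protocols, although the labels name the molecule polyA RNA. The values are raw read counts per gene in 1 table deposited by the authors. Per the submitters' processing notes the tools were FastQC, STAR 2.4.0a, featureCounts 1.4.5-p1, Subread and DESeq2, with builds hg19 and GRCh37.p5. The annotation, the strand setting of the counting and the handling of reads that fit several genes were not stated in the labels or the file header.

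From these counts, edgeR 4.0.16 (R 4.3.3) was used with TMM factors on genes passing filterByExpr (minimum count 10, minimum total 15). The comparison over both lines used line and state. Comparisons within and between lines used 1 mean per group, with the spread taken from the naive duplicates. P-values were adjusted over 19434 genes by the Benjamini-Hochberg method. Standard errors come from the F statistic. Log2 CPM for likeness used a prior count of 2 and genes with a mean of at least 1 CPM. The tests were tested on simulated data.

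The 8 members and the lists were chosen with earlier results of these data known. All members are named, with other family genes and up to 3 genes called higher and 3 lower by largest change from each list, plus neighbours and markers; some genes that this rule names are not reported here. RBM47, and the markers named, were chosen after their values were seen. Gene models, lengths and sequences come from GENCODE on GRCh38, a build other than that of the counts, so the shared stretches describe the genes, not the authors' counting. Alternatives were DESeq2 1.42.0, limma-voom (limma 3.58.1), other scalings, no filter, no line term, summed naive libraries, each library left out, a replicate block, and another length.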

Additional observations from a re-analysis of the deposited data

Results flagged for a closer look

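The 60 genes examined were the members, other family genes, neighbours, and the genes named from lists, and not all of them had enough reads to be tested. Of them, 9 had a state effect that differed between the lines by the test of that difference in edgeR (adjusted over all genes). The same test called 12% of all genes tested. The values given here are the naive over primed log2 fold change in RH6 minus that in RH5. For the tetherin BST2 the difference was -2.12, with more of a decrease in RH6. For the ubiquitin ligase TRIM22 it was -0.84, in the same direction. For the actin-bundling protein LCP1 it was -1.58, and for the APOBEC1 partner RBM47 1.27. For GDF3 it was 2.51, for NANOG 1.27, for its pseudogene NANOGP1 1.39, for the glucose transporter SLC2A3 1.73 and for its paralog SLC2A14 1.96. These last 5 lie near APOBEC1 on chromosome 12. NANOG shares sequence with NANOGP1 and SLC2A3 with SLC2A14, so their separate values are uncertain. None of the 5 tested APOBEC3 genes passed this test. By Dixon's test at the 95% level, 1 naive library was flagged for APOBEC3A and for CLEC4C, with a gap over range of 1 in each. Chance flags about 1 in 20 groups of normally distributed values, a rate that does not hold for counts near 0. These are 1 count of APOBEC3A and 2 counts of CLEC4C in naive RH6 replicate 2, against 0 in the other naive libraries. With 0 in all the others the gap over range is always 1, so these flags do not mark an unusual library.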

How the results depend on the processing

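With DESeq2 the genes called fell to 4003 in RH6, 3905 in RH5, 1306 for the difference between the lines and 2856 for naive RH6 against naive RH5, and the members called to 0 in RH6 and 0 in RH5. Over both lines, summing the naive libraries of each line left 1127 genes and 0 members called, with APOBEC3G at 1.43 on the log2 scale. Without the line term 0 members were called, with APOBEC3G at 1.39. Leaving out 1 library at a time gave 2961 to 6704 genes called over both lines, 0 to 1 members called over both lines, in RH6 and in RH5, and an APOBEC3G change of 1.31 to 1.55. Where a naive library was left out, the remaining library of its group was assumed to vary like the others. Where a primed library was left out, its line held no primed library, so the effect over both lines rested on the other line.

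Members near 0 changed sign, and so did APOBEC4, SLC2A3, SLC2A14 and SUN2. APOBEC3D was -0.053 with upper-quartile scaling over both lines and -0.029 in RH6, and APOBEC3B was 0.0016 between the naive lines without the count filter. Leaving out 1 library gave, over both lines, -0.40 to 0.16 for APOBEC3B, -0.28 to 0.0030 for APOBEC3C, -0.035 to 0.097 for APOBEC3D, -0.11 to 2.32 for APOBEC4, -0.33 to 1.43 for SLC2A3, -0.39 to 1.59 for SLC2A14 and -0.14 to 0.040 for SUN2. In RH6 the ranges were -0.18 to 0.39 for APOBEC3B, -0.10 to 0.046 for APOBEC3C, -0.013 to 0.15 for APOBEC3D and -1.17 to 0.44 for APOBEC4, in RH5 -0.15 to 0.13 for APOBEC3D, and between the naive lines -0.33 to 0.24 for APOBEC3B. The cause was not tested.

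Naive libraries with the same number correlated at 0.140 in their deviations (2 pairs). The labels tie no number to a shared culture or day, so the numbers were not taken as pairs. With a replicate block in the 4 naive libraries, 7404 genes and 1 member were called between the naive lines, against 5034 genes and 0 members without the block. That member was APOBEC3G, at -0.64 (edgeR adjusted p = 0.0497). Primed libraries carry no replicate numbers, so no other paired fit was possible. Of the values for single genes, APOBEC3G over both lines left out, 655 kept direction and call, 78 lost the call, 12 gained it and 19 reversed. APOBEC3G over both lines lost its call under 3 of 13 alternatives. The transcript length as an alternative was chosen after seeing the data. Counts of 13 to 61 reads limit APOBEC3G, and 0 to 6 reads limit APOBEC1, APOBEC3A and APOBEC3H.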
